A study of Mus musculus with 18 samples.

Results

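The 9 TRAMP prostate tumours of this series were compared within themselves, 3 tumours in which the Hoxb13 transcript was at background against 6 in which it was measured. The split was defined from the arrays: a tumour counts as Hoxb13-absent where the signal of the 1 Hoxb13 probe set was below 50, and as Hoxb13-expressing where it was 50 or above. Tumours 3, 5 and 7 met the first condition and tumours 1, 2, 4, 6, 8 and 9 the second, so 9 of the 18 arrays enter the comparison, and the other 9 are normal prostates.

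Each array is an Affymetrix mouse expression array hybridised with total RNA. The normal samples are labelled as the ventral and dorsolateral lobes of normal mouse prostate and the tumours as TRAMP prostate tumours. Strain, age, stage and animal are not stated, nor whether each sample is its own animal; a p-value here covers only the spread from sample to sample, which may be technical. Values are log2(signal + 16) unless a signal is named.

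Hoxb13 encodes a homeobox factor at the 5′ end of the HOXB cluster that is normally made in the epithelium of the prostate and that takes part in the growth of the ventral lobe. The seminal vesicle is a neighbouring gland that grows from the Wolffian duct, whereas the prostate grows from the urogenital sinus; its epithelium secretes very large amounts of a few proteins that form the copulatory plug. TRAMP mice carry the SV40 T antigens under a probasin promoter, which directs the transgene to prostate epithelium, and T antigen binds the RB and p53 proteins and drives the cell cycle. The model also gives poorly differentiated tumours with neuroendocrine features.

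The signal of Hoxb13 was 4.959 in tumour 3, 5.134 in tumour 5 and 3.2 in tumour 7. In the expressing group it was 148.8 in tumour 2, 671.4 in tumour 4, 836.9 in tumour 6, 1118 in tumour 8, 3309 in tumour 1 and 4524 in tumour 9. Tumour 5 is the absent tumour nearest the threshold and tumour 2 the expressing one, both far from it, with no tumour between them. Normal prostates 1 to 8 lay between 1825 and 12250, and normal prostate 9 had a signal of 6.599. The tumour values made the groups, so no test between the groups is given for Hoxb13. The markers named with the rule, Svs5 and Pate4, are likewise shown without a test result. Both stayed among the genes tested, and Pate4 is counted among the genes called higher.

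**Figure D1:**
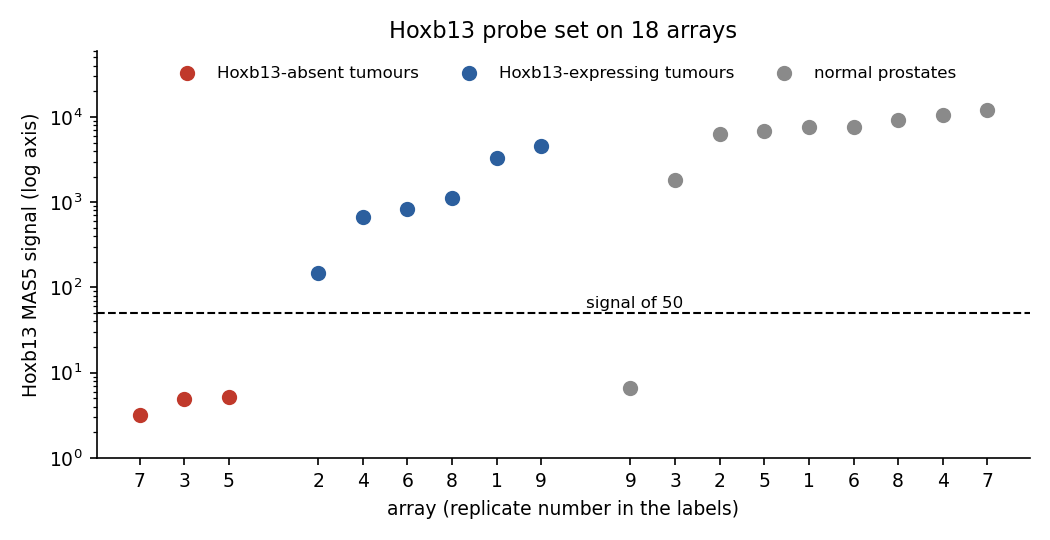
Signal of the Hoxb13 probe set on each of 18 arrays, on a log axis, with arrays named by the replicate number of the labels and sorted within each group. The dashed line is the signal of 50 that made the groups: tumours 7, 3 and 5 and normal prostate 9 lie under 10, and every other array lies at 148.8 or above.

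Some arrays stand apart in ways that touch the comparison. Normal prostate 9 had Pbsn, the probasin gene, at 4.18 against 8.08 to 14.43 in the other 8 normal prostates, Foxa1 at 8.50 against 13.21 to 13.84, and Svs2 at 15.27 against 4.17 to 8.28, so its values go against its label; it is in neither tumour group. Tumours 6 and 8 were the most alike of all 153 pairs of arrays (Pearson r 0.963 over the genes tested), with an SD of their differences of 0.46 that is still above 0. Poly-A spike controls were bright on tumours 1 to 5 and dim on tumours 6 to 9, and both sets hold both tumour groups. The 3′ to 5′ actin ratio, a measure of RNA integrity, was 1.38 ± 0.87 (SD, n = 3) in log2 for the absent tumours and 0.99 ± 0.22 (n = 6) for the expressing ones (exact permutation p = 0.333 over 84 splits, two-sided, where the smallest possible p is 0.0119). Pbsn was dim on all 9 tumours. Pax2 had no probe set assigned to it alone and was not analysed here.

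Of the 6 largest differences, with the markers set aside, 5 were in genes listed as seminal vesicle secretory genes. The promoters of 5 such genes, Svs2, Svs3a, Svs4, Svs5 and Svs6, lie within 94.5 kb of chromosome 2. The 250 bases before the RefSeq start (GRCm38.p6) are shown for 3 of the genes highest in the absent tumours, Svs3a at chr2:164289017-164289266 (+), Svs6 at chr2:164316501-164316750 (+) and Sva at chr6:42038144-42038393 (+). Capitals mark matches, on either strand, to CAATAAA (or TTTATTG), a HOXB13-type word, or to TGTTTAC (or GTAAACA), a forkhead word.
Svs3a: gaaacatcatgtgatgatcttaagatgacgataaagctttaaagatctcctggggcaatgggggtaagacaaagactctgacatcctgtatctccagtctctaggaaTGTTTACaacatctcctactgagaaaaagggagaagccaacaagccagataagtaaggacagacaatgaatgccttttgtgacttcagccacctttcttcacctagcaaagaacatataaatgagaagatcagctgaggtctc
Svs6: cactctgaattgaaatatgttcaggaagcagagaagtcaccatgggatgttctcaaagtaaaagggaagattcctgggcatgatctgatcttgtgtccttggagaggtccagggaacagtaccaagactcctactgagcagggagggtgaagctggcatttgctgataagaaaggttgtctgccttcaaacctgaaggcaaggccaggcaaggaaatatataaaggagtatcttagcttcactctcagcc
Sva: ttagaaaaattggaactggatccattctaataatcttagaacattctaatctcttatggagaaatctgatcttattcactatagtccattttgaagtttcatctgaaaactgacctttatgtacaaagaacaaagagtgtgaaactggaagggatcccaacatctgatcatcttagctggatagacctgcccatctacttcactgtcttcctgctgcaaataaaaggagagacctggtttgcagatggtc
Svs3a holds TGTTTAC starting 143 bases before the start, and neither word is in the Svs6 or Sva windows. The HOXB13-type word is in none of the 3.

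Svs5 is shown because its promoter is nearly a copy of that of Svs6, although the genes differed in level across the expressing tumours (below 9 in all 6 for Svs6, up to 13.21 for Svs5). Its window is chr2:164332515-164332764 (+), and capitals mark the longest run identical to the Svs6 window.
Svs5: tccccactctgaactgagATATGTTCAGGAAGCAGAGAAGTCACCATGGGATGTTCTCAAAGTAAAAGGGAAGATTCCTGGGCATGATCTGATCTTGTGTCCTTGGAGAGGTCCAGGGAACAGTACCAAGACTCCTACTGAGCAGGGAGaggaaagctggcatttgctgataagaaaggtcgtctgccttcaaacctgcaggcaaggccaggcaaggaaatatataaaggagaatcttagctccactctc
The run is 131 bases long, from base 232 to base 102 before the Svs5 start, and it lies 4 bases further from the start in Svs6. At that offset 237 of 246 aligned bases are identical (96.3%).

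Of the 186 genes that differed between the groups (below), 143 matched an entry of the promoter table. The HOXB13-type word was in 4 of 101 promoters of genes higher in the absent tumours (3.96%) and in 2 of 42 of genes lower (4.76%), beside 2.39% of the 11150 matched genes tested and 4.42% of all 27025 promoters. The forkhead word was in 1.98%, 0%, 2.29% and 3.09% of the same sets. A match to letters is a description and was not tested as a site.

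Of 13889 genes tested (limma, Benjamini-Hochberg adjusted p under 0.05), 186 differed between the groups, which is 1.34%. Higher in the absent tumours were 137 genes (0.986%) and lower were 49 (0.353%), and in every one of the 186 the values of the groups did not overlap. Across all genes tested the groups did not overlap in 1626, or 11.7%: the absent tumours lay above in 902 and below in 724. At an unadjusted limma p under 0.05, 2358 genes passed (17%). The groups were made from a signal of the same arrays, so an adjusted p states how far the groups stand apart. The 3 absent tumours correlated with each other at r 0.880, 0.913 and 0.915. The 15 pairs of expressing tumours ranged from 0.634 to 0.963 with a median of 0.795, and the 18 mixed pairs from 0.599 to 0.872 with a median of 0.784. The absent pairs thus lay above every mixed pair but within the range of the expressing pairs. Expressing tumours 6 and 8 (r 0.963) and expressing tumours 1 and 9 (r 0.923) were closer than any absent pair.

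Counts of calls moved with single tumours. Leaving out 1 tumour gave between 34 calls (without tumour 5) and 303 (without tumour 4), with 42 without tumour 3, 82 without tumour 1, 86 without tumour 7, 95 without tumour 8 and 102 without tumour 2. In all 9 of these fits 31 of the 186 genes were called, 29 higher and 2 lower (Gtse1 and Lgals7). With the spike-control set as a block 107 of the 186 kept an adjusted p under 0.05, and with the actin ratio as a covariate 49 did. Direction could not change with the block, because the groups did not overlap in any of the 186 and both spike sets hold both groups. With the covariate every one of the 186 kept its direction.

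Most seminal vesicle secretory genes measured had higher values in the absent tumours. With the markers Svs5 and Pate4 set aside, 5 of the 6 largest differences among all genes tested were theirs. Of 15 genes listed, 10 were measured and passed the filter on low signals. Of the 8 that are not markers, 5 were called higher and 0 lower, in 6 the absent tumours lay above all 6 expressing tumours, and the median difference was 7.32, beside 0.02 over all genes tested. The remaining 3, Svs4, Serpinb6b and Wfdc15a, were not called. Over all 13889 genes tested 137 were called higher and the absent tumours lay above in 902. The filter required 3 of 9 tumours above the 40th percentile, so a gene high in the absent tumours alone could pass through them. The summed signal of the list, markers included, ran from 222800 to 368600 in the absent tumours, from 379.5 to 31920 in the expressing tumours and from 627.8 to 106000 in the normal prostates. In tissue RNA, a larger share of cells of a type and more RNA per such cell cannot be told apart.

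Svs6, a secreted plug component, was at 14.69, 15.30 and 14.08 in tumours 3, 5 and 7. In the expressing tumours its lowest, median and highest values were 4.44, 5.85 and 8.29. The difference was 8.45 (SE 0.88, limma adjusted p = 0.00306), and the gap between the groups was wider than the whole spread of either; the 2 highest expressing tumours were 6 and 8.

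Sva, the seminal vesicle autoantigen that coats sperm, was at 13.79, 15.22 and 10.51 in the absent tumours and at 4.21, 4.61 and 6.28 (lowest, median, highest) in the expressing ones. The expressing values were all dim, meaning at or below the 40th percentile of their arrays, so its difference of 8.29 (SE 0.89, limma adjusted p = 0.00306) is given as a bound, at least 64.34-fold higher. Tumour 7 was the lowest of the absent tumours and still far above every expressing one. Sva could pass the filter on low signals only through the absent tumours.

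Svs3a, whose probe set may also read its near-identical copy Svs3b, was at 14.57, 15.66 and 14.07 in the absent tumours against 5.80, 6.68 and 8.92 in the expressing ones (difference 7.57, SE 0.74, limma adjusted p = 0.0022). Svs6, Sva and Svs3a were called in each of the 9 fits that left out 1 tumour.

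Svs2, the main structural protein of the plug, was within 15.55 to 15.80 in the absent tumours and spread from 4.07 to 10.77 (median 8.03) in the expressing ones. Its difference of 8.06 (SE 1.52) had a limma adjusted p of 0.0409, which became 0.0603 with the spike-control set as a block and reached 0.177 at most when a tumour was left out; the call was lost without tumour 1, 2, 3, 5 or 7. Spinkl, a Kazal-type protease inhibitor of the gland, differed by 7.06 (SE 1.01, limma adjusted p = 0.0144), with 14.11, 15.17 and 12.90 against 5.25, 6.54 and 9.22, and lost its call without tumour 3 or 5 (0.092 at most). Both genes were higher in each absent tumour than in any expressing one, and the spread within either group was narrower for the absent tumours.

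Svs4 and Svs5 show how far the expressing group spreads. Svs4 was at 15.29, 15.59 and 15.43 in the absent tumours, at 14.15 and 14.07 in tumours 6 and 8, at 10.70 in tumour 4, 9.38 in tumour 2 and 4.30 and 4.37 in tumours 1 and 9. The groups did not overlap, but the difference of 5.94 (SE 2.26) was not called (limma adjusted p = 0.218). Svs5 likewise had tumours 6 and 8 at the top of the expressing group, with 15.14, 15.44 and 15.34 against 13.19 and 13.21 in tumours 6 and 8 and 6.19 to 10.76 in the other 4. Pate4, a small secreted protein, was at 15.26, 15.61 and 15.28 against 4.83 to 10.03. In these 3 genes tumours 6 and 8 lay between the absent tumours and the remaining expressing ones. The same held in Svs2, Svs3a, Svs6 and Spinkl, and in Sva at dim values. Over all genes tested, tumours 6 and 8 both lay above the other 4 expressing tumours in 3006 genes (21.6%), and among the 137 higher genes in 43 (31.4%). Without tumours 6 and 8, 6 of the 8 list genes other than the markers were called higher, without tumour 3 or without tumour 5 there were 3, and in the other fits that left out 1 tumour 4 or 5.

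**Figure D2:**
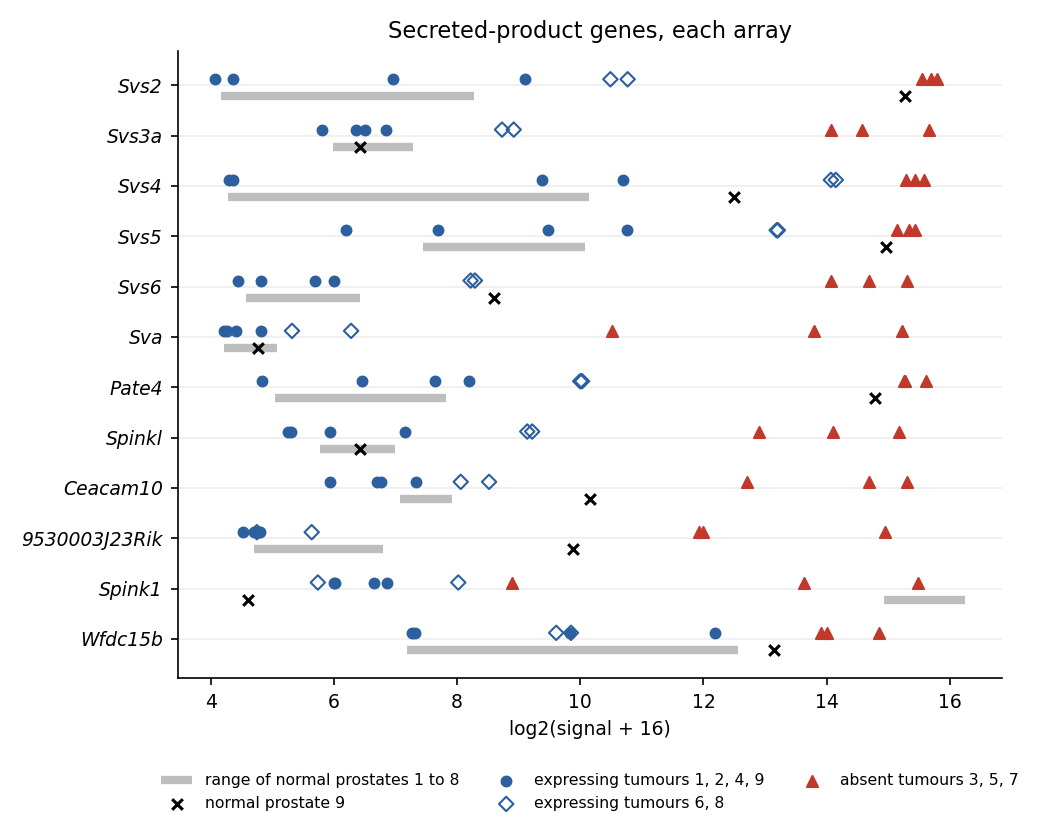
log2(signal + 16) of 12 secreted-product genes on each array: red triangles are absent tumours, blue circles and open diamonds expressing tumours, grey bars the range of normal prostates 1 to 8 and crosses normal prostate 9. In all 12 genes the absent tumours lie to the right of every expressing tumour, and in Svs4 and Svs5 tumours 6 and 8 come close to them. Most of the 12 were named because their groups did not overlap. Among all 13889 genes tested the absent tumours lay above in 902.

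Other secreted products outside the list were also higher. Ceacam10, a secreted member of the carcinoembryonic antigen family, was at 14.69, 15.30 and 12.70 against 5.94, 7.06 and 8.52 (difference 7.0, SE 0.67, limma adjusted p = 0.0022). The transcript 9530003J23Rik ran from 11.93 to 14.95 and was dim on all 6 expressing tumours, at least 55.58-fold higher (limma adjusted p = 0.000825). Pate14, of the same family as Pate4, differed by 6.92 (SE 1.05, limma adjusted p = 0.0196), a call lost without tumour 3 or 5 (0.119 at most). The first 2 of these 3 genes kept their calls whichever tumour was left out. The transcript 9530003J23Rik could pass the filter on low signals only through the absent tumours.

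Among WFDC, SPINK, serpin and cystatin inhibitors 3 of 18 genes were called higher and 0 lower, namely Spinkl, Spink1 and Wfdc15b, with a list median of 0.30. Spink1, the Kazal inhibitor of trypsin secreted by male accessory glands, was at 13.64, 15.48 and 8.89 against 5.74, 6.33 and 8.02; its adjusted p of 0.0432 (limma) became 0.0683 with the spike-control block and reached 0.19 when a tumour was left out, with a call only in the fit without tumour 7. Wfdc15b ran from 13.91 to 14.85 against 7.27, 9.72 and 12.19 (limma adjusted p = 0.0466, 0.0762 with the block), and it kept its call only in the fit without tumour 4. Spink1 was also high in normal prostates 1 to 8, between 14.94 and 16.24, whereas Wfdc15b ranged there from 7.18 to 12.56 with a median of 7.79.

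Secretory genes of the prostate proper had a list median near 0 that moved with the expressing tumours in the fit. Of 11 that passed, 1 was called higher (Spink1) and 0 lower, and the list median was 0.22, from -0.40 without tumour 9 to 0.74 without tumour 8. Without tumours 1, 4 and 9 the median was -1.07, with 0 called and 6 at an unadjusted limma p under 0.05. Without tumours 6 and 8 the median was 0.92, with 3 called higher and 0 lower. Tgm4, the dorsal prostate transglutaminase, was at 7.28, 6.47 and 6.89 in the absent tumours and near 10.7 in tumours 6 and 8 (10.76 and 10.68), with the other 4 expressing tumours at 4.34 to 5.56 (difference 0.09, limma adjusted p = 0.986). Of 17 transcription factors of prostate epithelium 0 were called in either direction at the adjusted threshold (limma), with a median of 0.05, and 3 had an unadjusted limma p under 0.05. Over all genes tested 1.34% were called and 17% had such an unadjusted p. Foxa1, a forkhead factor that opens chromatin in prostate epithelium, was at 10.13, 10.93 and 10.36 in the absent tumours, at 7.44 in tumour 2 and at 12.66 to 13.36 in the other 5 expressing tumours (difference -1.58, limma adjusted p = 0.53). Apart from tumour 2, the expressing tumours held more Foxa1 signal than the absent ones, and normal prostates 1 to 8 lay at 13.21 to 13.84.

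Most of the other HOXB genes measured had higher values in the absent tumours, but only Hoxb9 passed the test. Of 7 that passed the filter 1 was called higher and 0 lower, in 4 the absent tumours lay above all 6 expressing ones, and the median difference was 2.08, with 6 at an unadjusted p under 0.05. Over all 13889 genes tested 137 were called higher, the absent tumours lay above in 902, and 17% had an unadjusted limma p under 0.05. Hoxb9, the nearest neighbour of Hoxb13 in the cluster, was at 9.73, 10.11 and 9.87 against 4.56, 5.99 and 7.75 (difference 3.81, SE 0.71, limma adjusted p = 0.0402). This call was lost with the spike-control block (0.0644) and without tumour 2, 3, 5, 7 or 8 (0.182 at most). The lowest absent tumour lay above the highest expressing one.

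Hoxb6 was at 11.18, 11.30 and 10.38 against 4.66, 7.86 and 9.15, and its difference of 3.51 (SE 0.82) missed the threshold (limma adjusted p = 0.0719). Hoxb4 differed by 2.0 (SE 0.47, limma adjusted p = 0.0765) and Hoxb5 by 2.61 (SE 0.81, limma adjusted p = 0.145), both without overlap. Hoxb2 and Hoxb3 overlapped through tumour 4, which was at 9.58 and 10.44. Hoxb1 differed by -0.05 (SE 0.26, limma adjusted p = 0.948). Without tumour 4, 4 of the 7 HOXB genes were called higher. The antisense transcript Hoxb5os was higher by 2.73 (SE 0.50, limma adjusted p = 0.0364; 0.0566 with the block); labelling on this array does not settle whether it shares signal with the gene opposite.

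HOXD genes also had positive differences, short of the threshold: of 5 that passed the filter 0 were called in either direction (limma), 2 had an unadjusted p under 0.05, and the median was 1.27. Hoxd9 differed by 1.99 (SE 0.72, limma adjusted p = 0.197) and Hoxd8 by 1.27 (SE 0.54, limma adjusted p = 0.27), and all 5 overlapped between the groups. The 6 HOXA genes that passed had a median of -0.05. The group 13 relatives of Hoxb13 overlapped too. Hoxa13 was at 6.96, 6.65 and 7.49 against 6.34, 7.13 and 8.28 (difference -0.19, SE 0.47, limma adjusted p = 0.868). Hoxd13 was at 11.25, 9.15 and 10.34 against 6.91, 8.27 and 11.27, with tumours 6 and 8 at the top of the expressing group (difference 1.35, SE 1.05, limma adjusted p = 0.548). Hoxa10, which patterns the female and male ducts, differed by 0.09 (SE 1.05, limma adjusted p = 0.979). Hoxa5 was the 1 HOX gene called lower, at 7.06, 7.32 and 7.55 against 8.18, 8.83 and 9.23 (difference -1.42, limma adjusted p = 0.0435), and its call was lost with the block (0.0683) and in 8 of the 9 fits that left out 1 tumour, all but that without tumour 9 (0.198 at most).

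**Figure D3:**
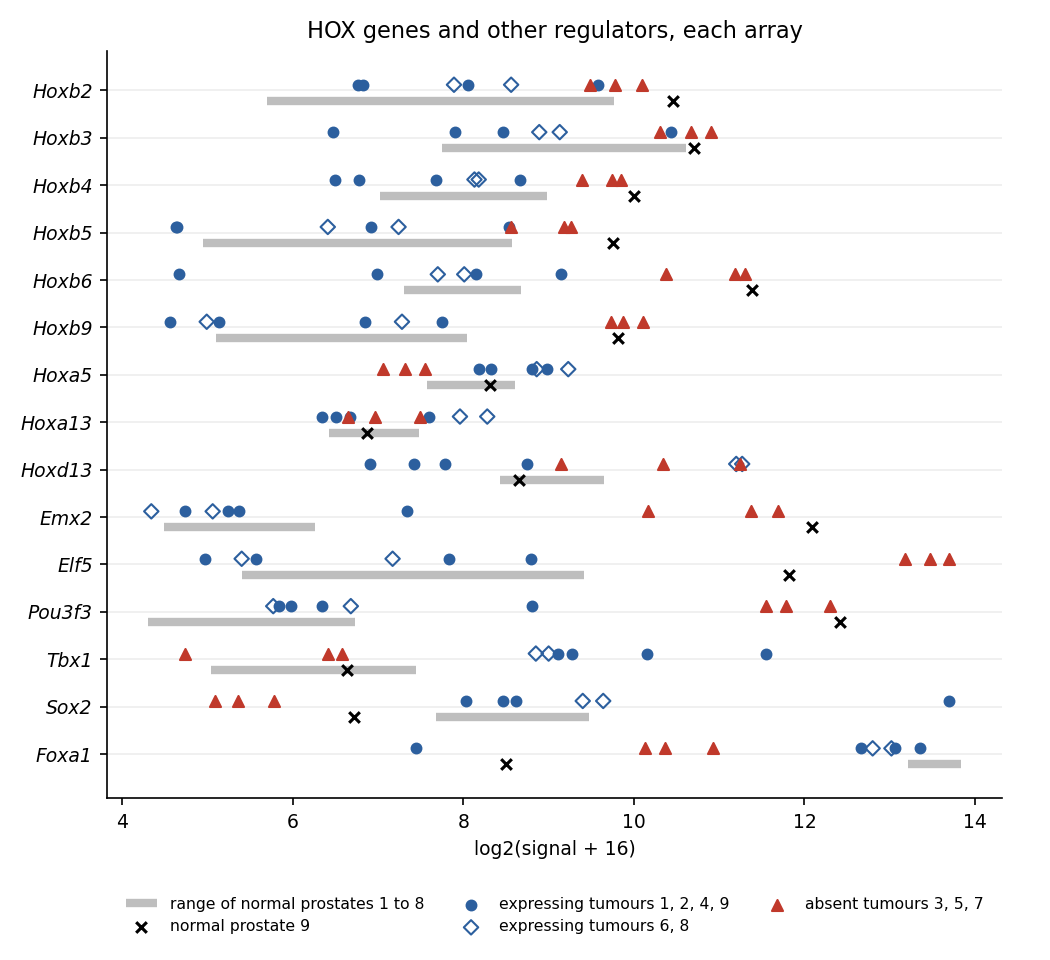
log2(signal + 16) of 9 HOX genes and 6 other regulators on each array, with the same symbols as for the secreted products. Hoxb9, Emx2, Elf5 and Pou3f3 are high in the 3 absent tumours and on normal prostate 9, while Hoxa13, Hoxd13 and Foxa1 overlap between the tumour groups.

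Emx2, Elf5 and Pou3f3, regulators outside the HOX clusters, kept their calls whichever tumour was left out. Emx2, a homeobox factor needed for the Wolffian duct and the rest of the urogenital tract, was at 11.37, 10.16 and 11.69 in the absent tumours and at 4.34, 5.15 and 7.34 in the expressing ones (difference 5.72, SE 0.62, limma adjusted p = 0.00306). Elf5, an ETS factor of secretory epithelium best known from the lactating mammary gland, was at 13.18, 13.47 and 13.69 against 4.97, 6.37 and 8.79 (difference 6.83, SE 0.80, limma adjusted p = 0.00454). Pou3f3, a POU factor of kidney tubules and brain that falls outside the rule for named genes and was chosen after its values were seen, was at 12.30, 11.78 and 11.55 against 5.77, 6.16 and 8.80 (difference 5.31, SE 0.62, limma adjusted p = 0.00449). Tumour 1 was the highest expressing tumour in Emx2 and Pou3f3.

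Emx2 was alone in its list: of 15 regulators of the Wolffian duct that passed, 1 was called higher and 0 lower, with a median of 0.07. Pax8, a duct regulator, was at 7.42, 7.74 and 7.47 against 7.10, 7.47 and 8.23 (difference -0.03, SE 0.30, limma adjusted p = 0.971). Gata3, which also takes part in Wolffian duct growth, was at 12.59, 11.96 and 12.32 and overlapped with tumour 4 at 11.99, while tumours 2 and 9 were at 4.36 and 4.53 (difference 3.81, SE 1.72, limma adjusted p = 0.299). Tbx3, a T-box factor of ductal epithelium, lay above all expressing tumours at 11.90, 12.66 and 12.18 against 8.02, 10.36 and 11.44, with a limma adjusted p of 0.205.

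Sox2, a stem and neuroendocrine cell factor, was dim in the absent tumours at 5.36, 5.78 and 5.09 and at 8.03 to 9.64 in 5 expressing tumours and 13.70 in tumour 2 (difference -4.23, SE 1.08, limma adjusted p = 0.0905). Tbx1, a T-box regulator, was dim in all 3 absent tumours (6.41, 4.73 and 6.58) against 8.85, 9.19 and 11.55, at least 5.438-fold lower (limma adjusted p = 0.0298; 0.0539 with the block; lost without tumour 1, 2, 3, 5 or 7, 0.152 at most). Both genes were bright in every expressing tumour, and Tbx1 lay at or below 7.45 in all normal prostates. Both could pass the filter on low signals only through the expressing tumours.

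Some protein folding genes of the endoplasmic reticulum were higher in the absent tumours. Of 25 that passed, 4 were called higher and 0 lower, in 16 the absent tumours lay above all 6 expressing tumours, and the median difference was 0.91, with 19 at an unadjusted p under 0.05. Over all 13889 genes tested 137 were called higher, the absent tumours lay above in 902, and 17% had an unadjusted limma p under 0.05. The summed signal of the list was 123000 to 178300 against 63210 to 84700, with no overlap, and 88090 or more in the normal prostates. The called members were Ern1, the stress sensor IRE1, its target Xbp1, and the co-chaperones Dnajb9 and Dnajc3.

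Ern1 was at 11.58, 12.26 and 11.44 against 9.09, 9.88 and 10.20 (difference 1.99, SE 0.31, limma adjusted p = 0.0204). Xbp1 was at 13.90, 14.36 and 13.84 against 12.56, 12.84 and 13.17 (difference 1.19, SE 0.23, limma adjusted p = 0.0425). Xbp1 lost its call with the block (0.0564) and in each of the 9 fits that left out 1 tumour, where its adjusted p was between 0.0515 and 0.211. Dnajc3 differed by 1.47 (limma adjusted p = 0.0301, 0.0509 with the block) and Dnajb9 by 1.76 (limma adjusted p = 0.0425); Dnajc3 lost the call without tumour 1, 2, 3, 5 or 7, Dnajb9 in 8 of the 9 fits, all but that without tumour 4, and Ern1 without tumour 3 or 5. With the actin ratio as a covariate 0 of the 25 were called by limma at the adjusted threshold, and without tumours 6 and 8 there were 9, so the count depends on which arrays enter while the median stayed between 0.71 and 1.12 over the settings computed for it.

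Some further genes of secretory cells, on no list and chosen after their values were seen, are given as examples of both directions. Ell2, a transcription elongation factor known from antibody-secreting plasma cells, was at 12.73, 12.84 and 12.62 against 8.84, 9.38 and 10.18 (difference 3.30, SE 0.28, limma adjusted p = 0.00142). Bhlha15, the MIST1 factor that shapes secretory cells, was at 10.86, 11.31 and 11.40 against 5.47, 6.43 and 8.96 (limma adjusted p = 0.0371, called in 3 of the 9 fits that left out 1 tumour). Serp1, which stabilises membrane proteins of the reticulum, differed by 2.20 (SE 0.23, limma adjusted p = 0.00306), Ero1b, an oxidase of disulfide formation, by 3.14 (SE 0.44, limma adjusted p = 0.0124), and Edem3, a mannosidase of misfolded-protein disposal, by 1.91 (SE 0.24, limma adjusted p = 0.00608). Serp2, a relative of Serp1, was called lower: it was dim in the absent tumours and at least 1.646-fold lower (limma adjusted p = 0.0409, lost without tumour 1, 3, 5, 6, 8 or 9). Golm1, a Golgi membrane protein, was also lower (difference -1.51, SE 0.31, limma adjusted p = 0.0496, 0.0777 with the block). Ell2 and Serp1 were called whichever tumour was left out. Serp2 could pass the filter on low signals only through the expressing tumours.

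Most cell division genes had lower values in the absent tumours, nearly all short of the threshold one by one. Of 23 mitosis genes that passed, 0 were called higher and 1 lower, but in 18 the absent tumours lay below all 6 expressing tumours, and the median difference was -2.17. At an unadjusted p under 0.05 there were 21. Of 28 DNA replication genes 1 was called lower and 0 higher, 17 lay below without overlap, and the median was -1.59, with 25 at an unadjusted p under 0.05. Over all 13889 genes tested 49 were called lower, the absent tumours lay below in 724, and 17% had an unadjusted limma p under 0.05. The summed mitosis signal was 8634 to 13950 in the absent tumours, 23560 to 103000 in the expressing tumours and 3023 to 6707 in the normal prostates, so the 3 tumour and tissue groups did not overlap.

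Mki67, the proliferation antigen Ki-67, was at 10.59, 10.15 and 9.74 against 11.47, 12.69 and 13.67 (difference -2.49, SE 0.48, limma adjusted p = 0.0425). Its call was lost with the block (0.0683) and kept in the fit without tumour 4 alone among those that left out 1 tumour (0.185 at most). Tk1, the S-phase thymidine kinase, was at 8.15, 6.28 and 7.85 against 8.93, 10.02 and 11.09 (difference -2.59, SE 0.51, limma adjusted p = 0.0465), with the same losses (0.0687 with the block, 0.19 at most). Tumour 4 was the lowest expressing tumour in both genes; without it 6 mitosis and 15 replication genes were called lower, and without tumours 6 and 8 the mitosis count was 13.

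Gtse1, a protein of the G2 and S phases, was with Lgals7 1 of the 2 lower genes called in every fit that left out 1 tumour. It was dim in the absent tumours (4.80, 5.44 and 5.17) and at 7.70, 8.26 and 8.97 in the expressing ones, at least 2.168-fold lower (fitted difference -3.19, SE 0.35, limma adjusted p = 0.00321). Cenpi, a centromere protein, was at least 3.673-fold lower (limma adjusted p = 0.0135; lost without tumour 5 or 7, 0.0768 at most), and Cdc25c, the phosphatase that activates CDK1 at mitosis, at least 2.891-fold lower (limma adjusted p = 0.0484, 0.0752 with the block). Dscc1, which loads the sliding clamp for sister chromatid cohesion, and Rcc1, the chromatin-bound exchange factor of Ran, differed by -2.66 and -3.11 (limma adjusted p = 0.0344 and 0.0357, 0.0593 and 0.0539 with the block). Cdc25c lost the call without tumour 1, 2, 3, 5, 7 or 8, Dscc1 without tumour 1, 2, 3, 5, 6, 7 or 8, and Rcc1 without tumour 1, 2, 3, 5, 6 or 8. Gtse1, Cenpi and Cdc25c were dim in every absent tumour and could pass the filter on low signals only through the expressing tumours.

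Cyclin D1 went the other way. Ccnd1, whose product activates CDK4 and CDK6 upstream of RB, was at 14.02, 13.24 and 13.78 in the absent tumours and at 8.45, 10.08 and 10.54 in the expressing ones (difference 3.81, SE 0.43, limma adjusted p = 0.00373), called whichever tumour was left out. It was the 1 gene of 28 in the list of RB, E2F and CDK inhibitor genes to be called, the list median being -0.71. Ccnd2 differed by 0.14 (SE 0.62, limma adjusted p = 0.933), and E2f1, a target and partner of RB, by -0.86 (SE 0.32, limma adjusted p = 0.215). High Ccnd1 therefore stood beside lower Mki67 in the same 3 tumours; normal prostates 1 to 8 held Ccnd1 at 9.90 to 11.39.

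Some neuroendocrine genes set apart certain expressing tumours rather than the groups. Of 23 granule genes 0 were called in either direction by limma and 3 lay below without overlap. The median was -1.45, with 6 at an unadjusted limma p under 0.05. Over all genes tested the absent tumours lay below in 724, and 17% had such an unadjusted p. In 11 of the 23 granule genes the absent tumours were all dim while some expressing tumour was not, beside 463 of the 13889 genes tested. Such genes could pass the filter on low signals only through the expressing tumours. Chga, chromogranin A, was at 6.28, 4.38 and 6.75 in the absent tumours, at 11.50 and 12.24 in tumours 1 and 9 and near 10 in tumour 4, and at 5.30 to 7.19 in tumours 2, 6 and 8 (difference -3.00, SE 1.51, limma adjusted p = 0.349). Insm1, a zinc finger factor of neuroendocrine fate, divided the tumours in the same way, at 12.29, 11.23 and 12.81 in tumours 1, 4 and 9 and at or below 7.21 in the other 6. Without tumours 1, 4 and 9 the granule median was -0.27. In that fit 16 of the 23 granule genes had a difference below 0 and 7 above, and 7 had an unadjusted limma p under 0.05.

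Mycl, a MYC family gene, was the 1 called gene of 25 neuroendocrine fate regulators (median -1.28, and -0.12 without tumours 1, 4 and 9). It was dim in the absent tumours at 5.20, 5.64 and 5.24 and at 7.89, 9.37 and 10.24 in the expressing ones, at least 3.927-fold lower (limma adjusted p = 0.0145; lost without tumour 3, 5 or 7, 0.0979 at most). In Mycl tumours 1 and 9 were the lowest expressing tumours, the reverse of Chga. Cadps, a priming factor of dense-core vesicles, was at least 6.837-fold lower (limma adjusted p = 0.0411, 0.0646 with the block), and Bex1, a small neuronal adaptor, was at 11.40, 8.57 and 10.99 against 12.28 to 14.30 (limma adjusted p = 0.0412, 0.0574 with the block). Cadps was called in 4 and Bex1 in 1 of the 9 fits that left out 1 tumour. Mycl and Cadps were dim in every absent tumour and could pass the filter on low signals only through the expressing tumours.

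Other genes named by size or role were the following. Trpv6, an epithelial calcium channel chosen after its values were seen, was at 10.65, 10.55 and 11.21 and dim on all 6 expressing tumours, at least 12.46-fold higher (limma adjusted p = 0.00138). Trpv6 could pass the filter on low signals only through the absent tumours. Nr4a3, an orphan nuclear receptor, was the 1 called of 27 nuclear receptors, at 11.83, 10.94 and 11.93 against 4.38, 7.04 and 8.34 (limma adjusted p = 0.0255; lost without tumour 1, 3, 5 or 7, 0.133 at most). Of 21 androgen-responsive genes 1 was called, Ccnd1, with a list median of 0.24. Sgk1, a kinase of steroid response in that list, was at 14.65, 14.87 and 14.83 against 8.13, 10.66 and 12.46 and missed the threshold (limma adjusted p = 0.0531), and Fkbp5, a receptor co-chaperone, differed by 0.88 (SE 0.27, limma adjusted p = 0.142). Lgals7, a galectin of stratified epithelium, was dim in the absent tumours and at least 2.067-fold lower (limma adjusted p = 0.00427), the 1 call among 14 basal epithelium genes. Further genes named by size were Smpx, a small muscle protein (5.94, SE 0.81, limma adjusted p = 0.0106, lost without tumour 3 or 5), Fam3b, a secreted cytokine-like protein (5.81, SE 1.03, limma adjusted p = 0.0334, lost without tumour 1, 2, 3, 5, 7 or 9), and Clca3a2, a chloride channel regulator (5.57, SE 0.94, limma adjusted p = 0.0273, lost without tumour 1, 2, 3, 5, 6 or 8). On the lower side they were Ckmt1, the mitochondrial creatine kinase (-3.72, limma adjusted p = 0.0409, 0.069 with the block), Clip4 (-2.81, limma adjusted p = 0.0388, 0.0666 with the block) and the metabolic kinase Pask (-2.64, limma adjusted p = 0.021, lost without tumour 1, 3 or 5). Tesc, a calcium-binding protein, was at least 3.589-fold lower (limma adjusted p = 0.0335, 0.0602 with the block, 0.154 at most when a tumour was left out). Lgals7, Ckmt1, Pask and Tesc were dim in every absent tumour and could pass the filter on low signals only through the expressing tumours.

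**Figure D4:**
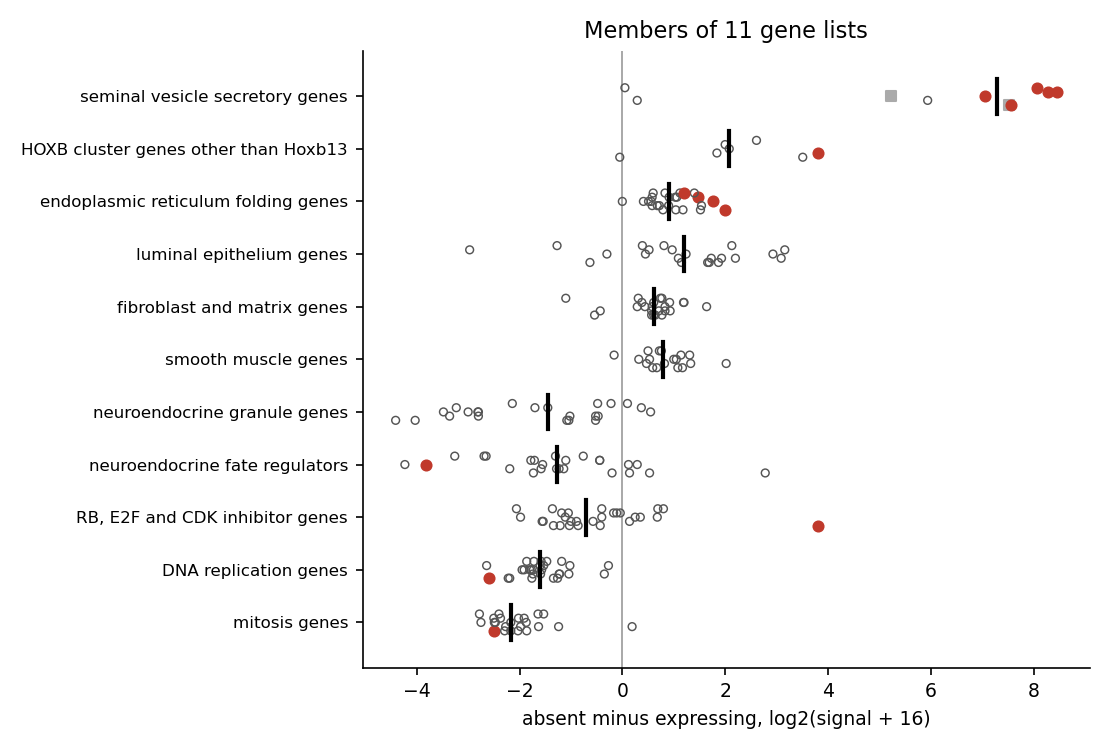
Absent minus expressing difference, in log2(signal + 16), of each measured member of 11 gene lists. Filled red points have a limma adjusted p under 0.05, and open circles are the remaining genes. Grey squares are the markers Svs5 and Pate4, drawn without a test result, and black bars are the list medians. The medians run from 7.29 for seminal vesicle genes, markers included, to -2.17 for mitosis genes, and Ccnd1 is the red point at 3.81 in the RB row.

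Marker lists of luminal epithelium, smooth muscle, fibroblasts and macrophages held no called gene (limma), beside 1.34% of all genes tested. At that share lists of 17 to 24 genes would hold few calls or none, so an empty list is not set apart. Luminal epithelium genes had 0 called of 22 with a median of 1.20; Krt8, a luminal keratin, was at 13.82, 14.04 and 13.91 in the absent tumours and at 13.65 to 13.95 in tumours 2, 4, 6 and 8, but at 9.36 and 7.72 in tumours 1 and 9. Smooth muscle genes had 0 called of 18 (median 0.79), with summed signals of 59140 to 247700 against 8385 to 274100. Fibroblast genes had 0 of 24 (median 0.63; 84100 to 100300 against 21180 to 90560) and macrophage genes 0 of 17 (median 0.63; 21620 to 118300 against 13440 to 36540). At an unadjusted limma p under 0.05 there were 3, 1, 2 and 0 genes of these 4 lists, beside 17% of all genes tested. These medians moved with single tumours: luminal fell to 0.59 without tumour 9, smooth muscle ran from 0.18 without tumour 7 to 1.43 without tumour 5, fibroblast fell to 0.35 without tumour 9 and macrophage turned to -0.13 without tumour 5. Without tumours 1, 4 and 9 the luminal median was -0.22, with 2 genes called lower. The sums overlapped between the groups, and their part in the results was not tested.

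Of 12 T, NK and B cell genes 2 were called higher, Xbp1 and the cytotoxic protease Gzmb; the latter was at 8.84, 8.48 and 8.16 and dim on all expressing tumours (limma adjusted p = 0.0295; lost without tumour 2, 3, 5, 7 or 8, 0.154 at most). Gzmb could pass the filter on low signals only through the absent tumours. Cd3d, Cd3e, Cd3g, Cd4 and Cd79a did not pass it. The summed lymphocyte signal was 20840 to 36390 in the absent tumours and 8517 to 51170 in the expressing ones. Epididymis genes, markers of another Wolffian derivative, had 0 called of the 4 that passed (median 0.02), and of 8 urothelium genes 0 were called. In either list 0 genes had an unadjusted limma p under 0.05, beside 17% of all genes tested.

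Normal prostate 9 is the 1 array outside the tumours with Hoxb13 below 50, and it had no part in the split. It lay above all 8 other normal prostates in 3084 of the genes tested (22.2%) and below all 8 in 2886 (20.8%). Among the 137 genes higher in the absent tumours it lay above all 8 in 62 (45.3%) and below all 8 in 17, and among the 49 lower genes it lay below all 8 in 16 (32.7%) and above in 3. It is 1 array, so these shares describe it and have no replicate check. Across all genes tested the correlation between the tumour difference and the difference of normal prostate 9 from the median of the other 8 was 0.14, where genes are not independent replicates.

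Several of the leading genes were high on normal prostate 9. Svs2 was at 15.27, the marker Pate4 at 14.78, Elf5 at 11.82, Emx2 at 12.09 and Pou3f3 at 12.42 there, each above all 8 other normal prostates. Of the 7 HOXB genes 6 lay above all 8, with Hoxb9 at 9.81 against 5.10 to 8.04, and the median difference was 3.01. Of 10 seminal vesicle genes 5 lay above all 8 and 0 below, namely Svs2, Svs4, Svs6 and the markers Svs5 and Pate4. Of 5 HOXD genes 4 lay above all 8.

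Other genes did not follow. Sva at 4.77, Svs3a at 6.43 and Spinkl at 6.42 lay within the range of the other 8, and Spink1 at 4.60 lay below their 14.94 to 16.24. Of the 25 endoplasmic reticulum genes 0 lay above all 8 and 13 lay below, and Bhlha15 was at 9.31 against 10.45 to 13.49. Mitosis genes were split, 2 above and 8 below of 23. Normal prostate 9 also lay above all 8 in 10 of 18 smooth muscle and 9 of 15 endothelium genes and below all 8 in 8 of 17 prostate transcription factors; the part of these tissues in its values was not tested. By overall likeness the absent tumours correlated with it at 0.820 to 0.883 and with the other 8 normal prostates at 0.770 to 0.846.

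**Figure D5:**
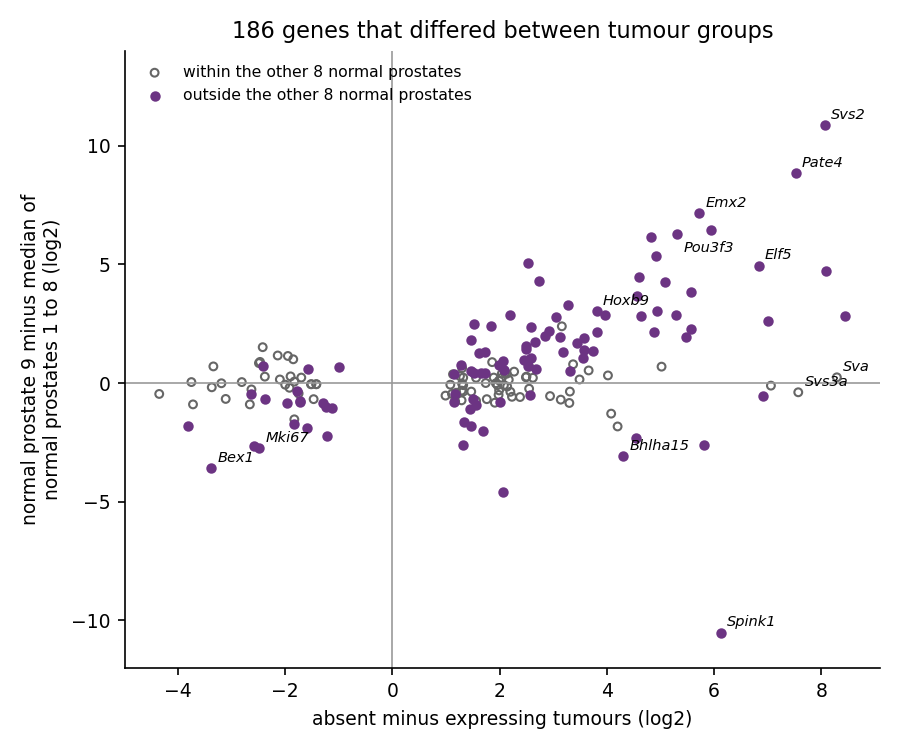
For the 186 genes that differed between the tumour groups, the absent minus expressing difference (x axis, log2) against the difference of normal prostate 9 from the median of normal prostates 1 to 8 (y axis, log2); filled points lie outside the range of those 8. Svs2, Pate4, Emx2 and Elf5 are at the upper right, Sva and Svs3a are near 0 on the y axis, and Spink1 is at the lower right.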

How the data were processed

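The deposited table holds a MAS5 signal intensity per probe set on a linear scale, made by the authors; MAS5 is named per the submitters' processing notes (version not given in the sources used here). The trimmed mean was 500 on all 18 arrays. MAS5 scales each array by a single factor and gives low signals large relative error, which log2(signal + 16) reduces; fold changes on that scale understate changes of dim genes. The number of arrays limits the precision.

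Of 45101 probe sets, 34945 carried 1 gene in the platform annotation, 932 several and 9160 none; 34741 matched a RefSeq gene. A probe set was kept where 3 or more of the 9 tumours exceeded the array's own 40th percentile (24959, 71.4%), and the brightest one represented its gene. Hoxb13 was left out. limma 3.58.1 in R 4.3.3 compared 3 with 6 tumours, two-sided, with Benjamini-Hochberg adjustment over 13889 genes. A value at or below the 40th percentile of its array is called dim; where a group was dim throughout, its values were raised to that percentile and the fold is a bound. The test was tried on simulated data. Figures used matplotlib 3.10.9 in Python 3.11.15.

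The members and gene lists were chosen with earlier results of these data known. Named are the 15 genes of largest difference in each direction among called genes without overlap between groups, the 4 or fewer leading genes of each list by size of the moderated statistic, and a set of prostate and lineage genes; others, such as Hoxb1, Hoxb2, Hoxb3, Hoxb5os, Insm1, Ccnd2, E2f1, Trpv6, Pou3f3 and the secretory-cell genes, were chosen after their values were seen. Lists held 688 genes, 71 of them without a probe set of their own.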

Additional observations from a re-analysis of the deposited data

Results flagged for a closer look

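Among the genes named most prominently, 31 were checked by Dixon's test for 1 array far from the others, Hoxb13 and the marker Pate4 included. The check covered the expressing tumours and the normal prostates, and 16 of 62 groups held such an array. The nominal rate of about 1 in 20 is for independent groups. These genes were picked from the same arrays and share them, so the count cannot be set against that rate.

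Normal prostate 9 accounted for most of them. It lay far above the other normal prostates in Svs2 (15.27, the next at 8.28), Pate4 (14.78, 7.82), Emx2 (12.09, 6.26), Ceacam10 (10.16, 7.92), 9530003J23Rik (9.88, 6.79) and Svs6 (8.60, 6.43). It lay far below them in Hoxb13 (4.50, the next at 10.85), Spink1 (4.60, 14.94) and Bex1 (7.57, 9.85).

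Other normal prostates stood apart in 1 gene each: number 3 in Pate14 (9.10, 7.45), number 7 in Clip4 (4.56, 6.85) and number 8 in Cdc25c (6.28, 5.33).

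Among the expressing tumours, tumour 1 stood above the rest in Emx2 (7.34, 5.37), tumour 4 in the chloride channel regulator Clca3a2 (9.37, 6.81), tumour 8 in 9530003J23Rik (5.64, 4.80) and tumour 9 in Tesc (11.88, 9.05). The groups did not overlap in any of the 4 genes, which was a condition for naming them.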

How the results depend on the processing

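No paired analysis was possible because both groups are tumours and share no replicate number. Of the 186 calls, all that could be fitted kept their direction in each alternative, except 1 gene with the filter taken over 18 arrays and 1 without probe sets of several transcripts. Where an alternative only left out, averaged or blocked tumours this was fixed beforehand, because the groups did not overlap in any of the 186. Counts stayed within 1.5 times of 186 for the other pseudocounts, filters, scalings and probe set rules and with a trended robust fit. They grew with array weights (781; 442 higher, 339 lower), with all 18 arrays in the fit (1032; 524, 508), without tumours 6 and 8 (565; 339, 226) and, chosen after seeing the data, with normal prostate 9 added to the absent group (327; 170, 157), where lower genes grew most; without tumours 1, 4 and 9 the lower count was 101. They fell with the spike-control block (118; 98, 20), with tumours 6 and 8 averaged as 1 sample, also chosen after seeing the data (118; 98, 20), with the actin ratio as a covariate (51; 42, 9) and with a test against a 2-fold change (28; 27, 1). Within the arrays with bright spike controls limma called 33 (30, 3); within the dim set, with 1 absent tumour that is assumed to vary like the others, it called 0 (0, 0), with 514 at an unadjusted p under 0.05. Leaving out 1 tumour gave 34 to 303 calls, 32 to 176 higher and 2 to 127 lower. The cause was not tested where a setting's own construction (fewer samples) does not show it.

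The groups hold 3 and 6 arrays and were set by 1 probe set of the same arrays. No tumour had a Hoxb13 signal between 5.134 and 148.8. Genes dim in a group have only a bound. Whether tumours 6 and 8 are separate animals is not stated.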
